A study of Mus musculus with 6 samples.

Results

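The genes described here handle cholesterol that cells export or store: the transporters and receptor of cholesterol efflux, the liver X receptors (LXR) that switch them on, and the enzymes that make or cleave cholesteryl esters. They were chosen by name and function, with earlier results of these data known, and no measured value enters the rule. Of 10 listed genes, 8 are measured by a probe set that names that gene alone (Abca1, Abcg1, Nr1h3, Scarb1, Apoe, Nceh1, Lipa and Lcat, 1 probe set each), out of 19752 genes measured in this way. Nr1h2, which encodes LXR beta, and Soat1, which encodes the acyltransferase that stores cholesterol as ester, are not analysed here.

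RNA from mouse aorta was hybridised to 6 Affymetrix whole-transcript arrays, 1 per sample, which gave log2 intensities for 25254 probe sets. The DKO group held 3 samples with the genotype apoe-/- adora1-/-, and the APOE-KO group held 3 samples with the genotype apoe-/-. Both groups therefore lack Apoe per their labels and differ in Adora1, the adenosine A1 receptor gene. All mice were C57BL/6 and 20 weeks old. The series text calls the second group ADORA1 knockouts, whereas each of its sample labels names Apoe, and the sample labels were followed. There was no wild-type aorta, and the labels do not say how the alleles were made, which sex the mice had or how much fat surrounded the vessel.

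Macrophages of the artery wall take up lipoproteins, free the cholesterol in lysosomes and either re-esterify it into droplets or pass it to particles outside the cell. ABCA1 loads lipid-poor apolipoprotein A-I, ABCG1 and the receptor SR-BI move cholesterol to mature HDL, and LCAT esterifies it on the particle. Excess cholesterol raises oxysterols, which activate LXR bound with RXR at DNA elements made of a repeated half-site, and Abca1, Abcg1 and Apoe are classical LXR target genes.

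The repeat bound by LXR and RXR is written as 2 copies of AGGTCA in the same direction with 4 bases between them. It was looked for on both strands in the 250 bases before the start of each gene, in RefSeq windows of assembly GRCm38.p6, which hold 8 of the 10 listed genes, all but Abcg1 and Scarb1. The Abca1 and Lcat windows had the closest matches, at 9 of 12 letters, that is with 3 mismatches, and 18.5% of all 32851 windows had a match at least as close. The best matches of the other 6 genes had 4 or 5 mismatches, and 70.6% of all windows had a match with 4 or fewer. They are shown because Abca1 is a widely used readout of LXR activity and Lcat had the lowest difference of the 8. The capitals mark the 16 bases of the match, which in Abca1 is read on the opposite strand. A match of letters is a description only, and whether either stretch is bound was not measured here. The Abca1 sequence is chr4:53159896-53160145 on the minus strand, and the Lcat sequence is chr8:105943403-105943444 on the minus strand.
Abca1: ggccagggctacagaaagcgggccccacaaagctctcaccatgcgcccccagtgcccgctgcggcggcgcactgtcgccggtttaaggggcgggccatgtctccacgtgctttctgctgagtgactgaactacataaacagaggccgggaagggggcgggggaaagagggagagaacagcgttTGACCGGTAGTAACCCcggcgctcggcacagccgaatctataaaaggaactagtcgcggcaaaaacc
Lcat: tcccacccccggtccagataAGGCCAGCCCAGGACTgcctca

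No gene of the 8 passed between DKO and APOE-KO aortas. Levels of Lcat, Scarb1, Nr1h3, Abca1, Apoe and Abcg1 averaged lower in DKO, and those of the ester hydrolases Lipa and Nceh1 averaged higher. Every mean difference was small, between -0.31 and 0.20 on the log2 scale, or 0.807-fold to 1.15-fold. With limma over all 25254 probe sets, adjusted p-values of the 8 genes ran from 0.861 to 0.978, and 0% of all probe sets passed at an adjusted p of 0.05. With the replicate number as a block, 0.174% of all probe sets passed and again none of the 8 (limma, adjusted p from 0.18 to 0.905).

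The transporters differed in how evenly the replicate numbers behaved. Abca1, which exports cholesterol and phospholipid to apolipoprotein A-I, read 9.88, 10.64 and 10.51 in DKO replicates 1 to 3, against 10.33, 10.75 and 10.58 in APOE-KO replicates 1 to 3. The lowest array was DKO replicate 1, the other DKO arrays lay within the APOE-KO range, and the groups overlapped. The mean difference was -0.21 (95% interval -0.70 to 0.28; limma, adjusted p = 0.928), with same-number differences of -0.44, -0.11 and -0.08, and it was 0.02 without DKO replicate 1.

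Abcg1, which moves cholesterol to HDL, read 8.57, 9.09 and 8.87 in DKO, against 9.08, 8.85 and 8.75 in APOE-KO. The highest and the lowest array were both DKO, and the same-number differences took both signs, at -0.51, 0.24 and 0.13. Its mean difference of -0.05 (95% interval -0.40 to 0.31) changed sign without DKO replicate 1 (0.09), without APOE-KO replicate 1 (0.05) and with array weights (0.10). Abcg1 was the single gene of the 8 whose same-number differences did not share a sign.

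Scarb1, which encodes SR-BI, the HDL receptor that carries cholesterol in both directions, read 8.85, 8.94 and 8.78 in DKO, against 9.03, 9.11 and 9.16 in APOE-KO. Every DKO array lay below every APOE-KO array, and the spread within a group was small (means 8.86 ± 0.08 in DKO and 9.10 ± 0.07 in APOE-KO, SD, n = 3 each). The difference was -0.24, or 0.845-fold (95% interval -0.44 to -0.05), the single one of the 8 whose interval without pairing left out 0. It did not pass over all probe sets (limma, adjusted p = 0.861), and between -0.29 and -0.17 it kept its sign in all 19 alternative settings tried. Several of these settings cannot change the difference itself.

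Nr1h3, which encodes LXR alpha, the sterol-activated receptor rich in macrophages, liver and fat, read 8.22, 8.51 and 8.67 in DKO, against 8.39, 8.91 and 8.82 in APOE-KO. Replicate 1 was the lowest array of each group, and the groups overlapped. Its same-number differences were -0.16, -0.40 and -0.14, with a mean of -0.24 (95% interval -0.64 to 0.16; limma, adjusted p = 0.883). Without APOE-KO replicate 1 the difference was -0.40, and without DKO replicate 1 it was -0.12.

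**Figure D1:**
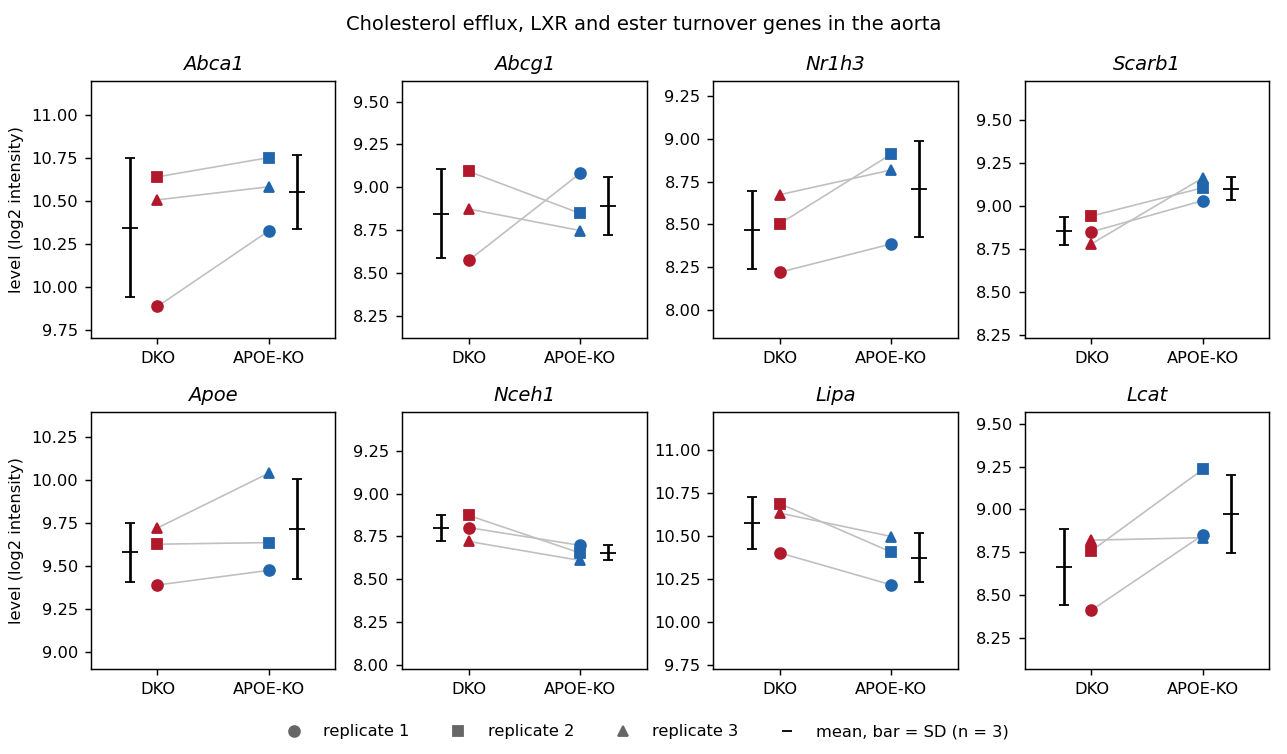
Level of each gene (log2 intensity) on every array, DKO at the left and APOE-KO at the right of each panel, with grey lines joining arrays of the same replicate number and black marks giving the mean and SD (n = 3). All panels span the same number of log2 units; the groups are apart in Scarb1, Nceh1 and, by a narrow gap, Lcat, and Abca1 is lowest in DKO replicate 1 at 9.88.

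Apoe encodes the apolipoprotein that macrophages secrete to carry exported cholesterol, and both groups are labelled as lacking it. Its probe set read 9.39, 9.63 and 9.72 in DKO, against 9.47, 9.64 and 10.04 in APOE-KO. The difference between group means was -0.14 (95% interval -0.52 to 0.25; limma, adjusted p = 0.935), and it was 0.02 without APOE-KO replicate 3, the highest array. No label or header places the probes relative to the targeted part of the gene, so the level neither checks the labels nor measures working apolipoprotein E.

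Lcat encodes the plasma enzyme that esterifies cholesterol on HDL and is made mainly by liver. It read 8.41, 8.76 and 8.82 in DKO, against 8.85, 9.23 and 8.84 in APOE-KO. The groups did not overlap, but DKO replicate 3 and APOE-KO replicate 3 differed by only 0.01, while the same-number differences of replicates 1 and 2 were -0.44 and -0.47. The mean difference of -0.31, or 0.807-fold (95% interval -0.67 to 0.05), was the lowest of the 8 and did not pass (limma, adjusted p = 0.862). It was -0.18 without DKO replicate 1 and also without APOE-KO replicate 2.

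The ester hydrolases were the genes with higher averages in DKO. Lipa encodes lysosomal acid lipase, which frees cholesterol from lipoprotein esters, and read 10.40, 10.69 and 10.63 in DKO, against 10.22, 10.41 and 10.50 in APOE-KO. Each DKO array was above the APOE-KO array of the same number, by 0.19, 0.28 and 0.14, although the groups overlapped. The difference was 0.20, or 1.15-fold (95% interval -0.07 to 0.47; limma, adjusted p = 0.862).

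Nceh1 encodes neutral cholesterol ester hydrolase of the endoplasmic reticulum, which serves ester breakdown in macrophages. It read 8.80, 8.87 and 8.72 in DKO, against 8.70, 8.65 and 8.61 in APOE-KO. Every DKO array was above every APOE-KO array, and the difference was 0.14, or 1.105-fold (95% interval -0.04 to 0.33, with a limma adjusted p of 0.862). Over the 19 settings, several of which cannot change the difference itself, Nceh1 stayed between 0.11 and 0.18 and Lipa between 0.12 and 0.29. Both kept a positive sign while neither passed in any of them.

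**Figure D2:**
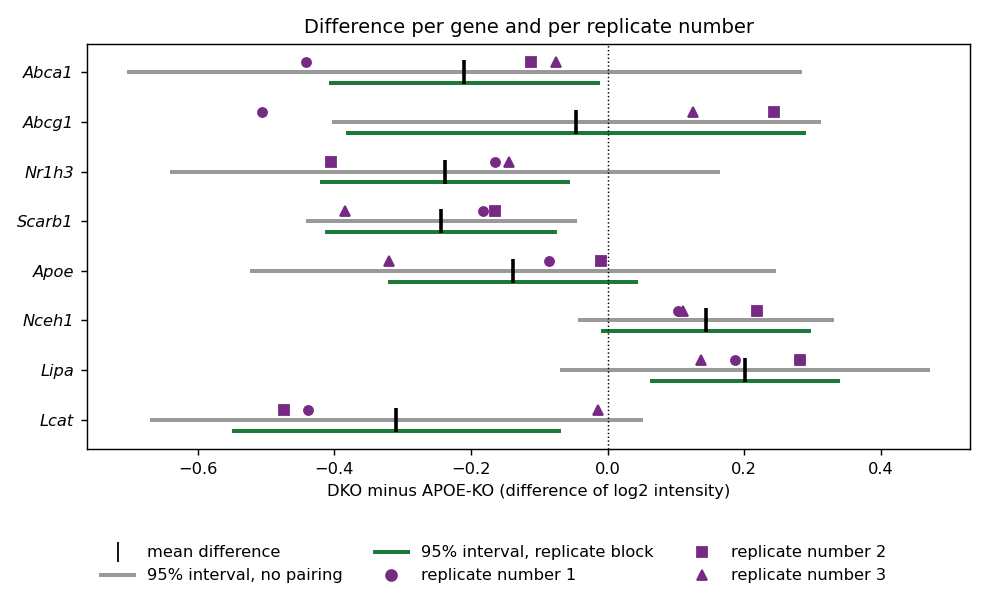
Difference of log2 intensity, DKO minus APOE-KO, for each gene: the black tick is the mean, the purple marks are the 3 same-number differences, and the bars are 95% intervals without pairing (grey) and with the replicate block (green). Nceh1 and Lipa lie right of 0 at every number, Abcg1 lies on both sides, and Scarb1 alone has a grey interval that does not reach 0.

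As a group, 6 genes averaged lower in DKO and 2 higher, with a median difference of -0.17, against -0.00241 over all probe sets. The medians of the same-number differences were -0.17, -0.06 and -0.04 for replicates 1 to 3. The groups did not overlap in 3 of the 8 genes, 2 lower (Scarb1 and Lcat) and 1 higher (Nceh1), beside 12.0% of all probe sets, 6.47% lower and 5.55% higher. All 3 same-number differences shared a sign in 7 of the 8 genes, beside 40.3% of all probe sets. At an unadjusted p of 0.05 limma counted 1 of the 8, Scarb1, beside 5.62% of all probe sets, and with the replicate block 5 of the 8, Abca1, Nr1h3, Scarb1, Lipa and Lcat, beside 16.2%. These genes share arrays and were listed with earlier results of the series known, so the counts describe the group and carry no test.

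DKO replicate 1 was the lowest array in 5 of the 8 genes: Abca1, Abcg1, Nr1h3, Apoe and Lcat. Without it the median difference of the 8 was -0.0115, and without APOE-KO replicate 1 it was -0.27. The same array was the lowest in 16 of 16 measured macrophage markers and in 6 of 7 white adipocyte markers. It was also the lowest in 5 of 6 brown adipocyte markers, but in 1 of 8 smooth muscle and 1 of 8 endothelial markers. The share over all probe sets is not given here. The mean level of the macrophage markers ran from 8.81 to 9.99 in DKO and from 9.45 to 9.67 in APOE-KO, and that of the white adipocyte markers from 9.08 to 9.94 in DKO and from 9.58 to 10.26 in APOE-KO. In these whole-vessel samples, fewer cells of a type and less RNA per cell cannot be told apart, and the part of any cell type in the gene differences was not tested.

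The same-number medians of the macrophage markers were -0.82, 0.38 and 0.20. Among these markers Cd68, a lysosomal glycoprotein of macrophages, read 9.04, 10.89 and 10.48 in DKO, against 9.93, 10.54 and 10.13 in APOE-KO. No macrophage marker passed in either fit. The white adipocyte markers had same-number medians of -0.34, -0.08 and -0.58. With the replicate block 2 of the 7 fell, Retn and Cidec, beside 0.174% of all probe sets, and neither passed without pairing (limma, adjusted p = 0.368 and 0.866) or in the ordinary linear model with the block, which passed 0 probe sets. Lep, the leptin gene of the same list, had a difference of 0.36. Of 8 endothelial markers, 7 averaged higher and 1 lower in DKO, and 0 passed in either fit. Their same-number medians were 0.132, 0.132 and 0.162, all positive. Smooth muscle markers, which check the labelled tissue, averaged 12.4 to 12.6 in DKO and 12.3 to 12.6 in APOE-KO. Their same-number medians were also positive, at 0.0155, 0.0665 and 0.0457.

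**Figure D3:**
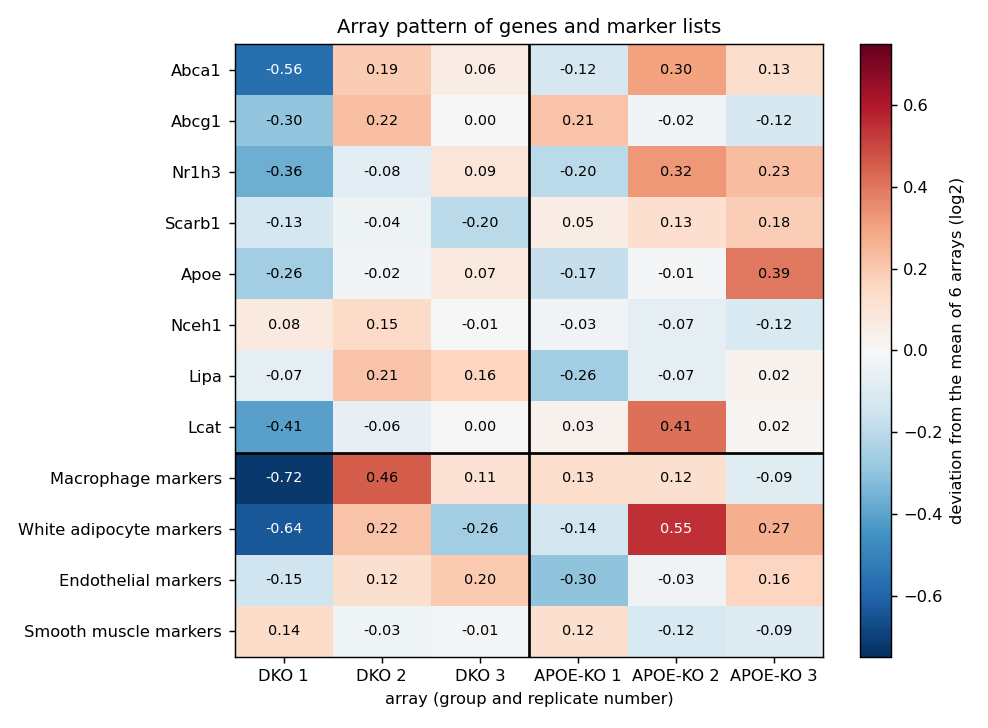
Deviation of each gene, and of the mean of each marker list, from its own mean over the 6 arrays (log2), with DKO arrays in the left columns and APOE-KO arrays in the right columns. DKO replicate 1 is blue in 7 of the 8 genes and deepest for Abca1 (-0.56), macrophage markers (-0.72) and white adipocyte markers (-0.64).

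Lung epithelial markers stood far higher in both replicate 3 arrays, at a mean level of 9.30 in DKO replicate 3 and 9.96 in APOE-KO replicate 3, against 6.38 to 6.48 on the other arrays. Without both replicate 3 arrays the median difference of the 8 genes was -0.15 and 0 of them passed. Adrenal cortex markers, which matter because steroid-making cells are rich in SR-BI and cholesteryl ester, averaged 6.23 to 6.35 in DKO and 6.28 to 6.45 in APOE-KO. These means lay below the array medians of 8.01 to 8.02, and whether such signals stand above background was not tested. Same-number medians of this list were -0.103, -0.0645 and -0.0937.

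The array pattern of each gene was set against those of 17534 other genes by Pearson's r over the 6 arrays, as a description only. The closest gene was Cdk12, a transcriptional kinase, for Abca1 (0.997), Ccnd1, cyclin D1, for Nr1h3 (0.996), Esam, an endothelial junction molecule, for Lipa (0.990) and Sptlc3, a sphingolipid synthesis subunit, for Scarb1 (0.993). For the other genes it was Anxa8 for Abcg1, Sirt4 for Apoe, Tmem170b for Nceh1 and Cct8l1 for Lcat, with r from 0.987 to 0.994. The closest of 17534 genes over only 6 arrays can have a high r for almost any pattern. These r values therefore single out no gene and show no shared regulation.

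Around these 8 genes, 106 of 117 genes in 7 lists of the wider pathway were measured, and 0 passed without pairing or with the replicate block. Of the 106, 43 averaged higher and 63 lower in DKO, with a median difference of -0.0227. The lowest adjusted p was 0.591 without pairing, for Fasn, and 0.0545 with the block, for Vldlr (limma). Genes named below have the 3 smallest unadjusted p-values of their list. Rxrg, Apoc1, Ces1f, Cel, Olr1, Lipg, Apoc3, Cyp7b1, Sult2b1 and Cyp7a1 averaged below the array medians of 8.01 to 8.02 in both groups. Whether such low signals stand above background was not tested.

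Among 13 LXR partners and co-regulators, 4 averaged higher and 9 lower (median -0.05). Rxrg, a partner receptor subunit, had a difference of -0.25 and Pparg, the adipocyte nuclear receptor that also induces Nr1h3, one of -0.36, while that of Sirt1, a deacetylase that acts on LXR, was 0.17. Pparg read 8.84, 9.48 and 9.14 in DKO, against 9.12, 9.81 and 9.61 in APOE-KO, so its lowest array was DKO replicate 1, as for Nr1h3.

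The 19 other LXR target genes split evenly, with 9 higher and 10 lower and a median of -0.00983. Fasn, the fatty acid synthase, had the lowest value in the list (-1.13), with Lpl, the lipoprotein lipase (-0.54), and Apoc1, an apolipoprotein gene next to Apoe (-0.35), also lower. At the other end was Cd5l, a secreted protein of macrophages, named after its value was seen. It read 6.43, 10.00 and 9.21 in DKO, against 7.50, 7.50 and 6.83 in APOE-KO. Its difference of 1.27 did not pass (limma, adjusted p = 0.87), and its DKO arrays lay both below and above all APOE-KO arrays.

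Ester storage and hydrolysis genes other than Lipa and Nceh1 had the lowest median of the 7 wider lists, -0.20, with 2 of 13 higher and 11 lower. Dgat2, which completes triglyceride synthesis, had a difference of -0.58, Ces1f, a carboxylesterase, one of -0.35, and Cel, the bile-salt-activated lipase, one of -0.21. Lipe, the hormone-sensitive lipase of adipocytes that also cleaves cholesteryl esters, was named after its value was seen and read 9.80, 10.64 and 10.19 in DKO, against 10.17, 10.89 and 10.61 in APOE-KO.

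Intracellular sterol transport genes were split evenly, 10 higher and 10 lower (median -0.000902). The smallest p-values belonged to genes with higher averages: Cav1, the caveolar coat protein (0.25), Arv1, a sterol homeostasis protein of the endoplasmic reticulum (0.23), and Tspo, a mitochondrial outer membrane protein (0.26). Every DKO array was above every APOE-KO array in 3 of the 20 genes, Cav1 and Arv1 among them, beside 5.55% of all probe sets. Every DKO array was below in 0 of the 20, beside 6.47%.

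In the 14 lipoprotein uptake and scavenger receptor genes, 6 averaged higher and 8 lower (median -0.01). Vldlr, the very low density lipoprotein receptor, read 11.05, 10.62 and 10.60 in DKO, against 10.54, 10.17 and 10.28 in APOE-KO, a difference of 0.43 that did not pass. Olr1, which encodes the oxidised LDL receptor LOX-1, had a difference of -0.32 and Scarb2, a lysosomal membrane protein, one of -0.17.

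The 17 HDL particle genes had 7 higher and 10 lower averages (median -0.07). Lipg, the endothelial lipase, and Apoc3, an inhibitor of lipoprotein clearance, had differences of -0.29 and -0.17, and Pon3, a paraoxonase, one of 0.33. Oxysterol enzymes showed the narrowest range, from -0.13 to 0.03, with 5 of 10 higher, and Cyp7b1, Sult2b1 and Cyp7a1 at -0.13, -0.10 and -0.13.

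**Figure D4:**
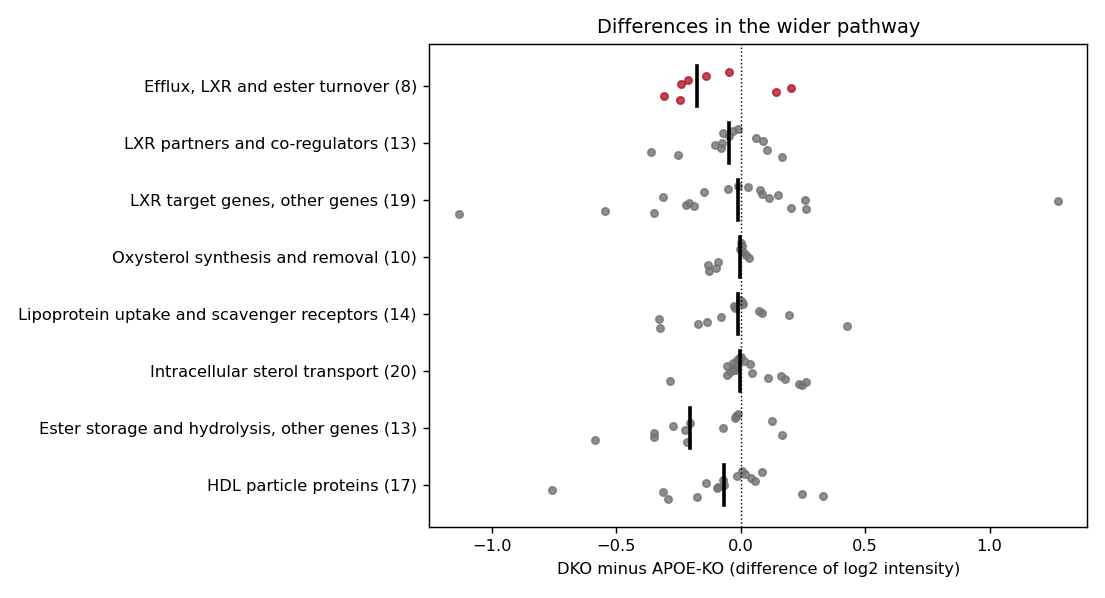
Difference of log2 intensity, DKO minus APOE-KO, for every measured gene of the 8 described here (top row, red) and of the 7 wider lists (grey), with the number of genes in brackets and the median as a black line. The 2 outlying points are Fasn at -1.13 and Cd5l at 1.27, both in the LXR target list.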

How the data were processed

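The deposited values are log2 intensities of 25254 probe sets. Per the submitters' processing notes the authors used RMA, Partek and the mouse build mm9; versions are not stated there. The series text names array batch as a factor of the authors' ANOVA, but no label gives the batch of an array, and whether the deposited values had it removed is not stated. The arrays had medians of 8.01 to 8.02. Probe sets were named from the platform annotation (21496 name 1 gene), and each gene was represented by its probe set with the highest mean.

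DKO minus APOE-KO was fitted across all 25254 probe sets, unfiltered, in limma 3.58.1 under R 4.3.3 (lmFit, then trended eBayes); p-values are two-sided and Benjamini-Hochberg adjusted at 0.05. Same-numbered arrays deviated together from their group means (correlations 0.60, 0.498 and 0.636), so the replicate number was also fitted as a block; no label says what a number shares or whether it is that batch. With 3 arrays per group, exact permutation of a single value reaches 0.1 at best, and the number of arrays limits precision. On simulated arrays of 25254 probe sets, the unpaired fit recovered 81% of changes of 1 log2 unit and 99% of changes of 2. The fit with the block recovered 58% and 90%. Measured arrays went the other way, with 44 probe sets passing with the block and 0 without. The simulated noise was drawn independently for each array, without the deviation that same-numbered measured arrays share. Neither the recovered percentages nor the order of the fits is therefore carried over to the measured arrays. Smaller changes, such as the differences of -0.31 for Lcat and 0.20 for Lipa, were not simulated, so power for them is not known.

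The genes and lists were chosen with earlier results of these data known. Named were all 8 genes and, per wider list, the 3 smallest unadjusted p-values. Beside the marker lists described, fibroblast, brown adipocyte, hepatocyte and erythroid (2 of 6 listed) markers were measured and passed in neither fit. Hepatocyte markers averaged 6.95 to 7.21 in DKO and 7.10 to 7.65 in APOE-KO, with 1 of 7 genes higher and 6 lower. Cyp2e1 of that list, named after its value was seen, had a difference of -1.65 (limma, adjusted p = 0.861, and 0.0503 with the replicate block). Its relation to the level of Lcat was not tested.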

Additional observations from a re-analysis of the deposited data

How the results depend on the processing

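Across 19 alternative settings, 0 of the 8 genes passed. Of 152 single-gene values, 146 kept their sign and 6 changed it. Settings that change only the variance model, the block or the probe sets kept return the main difference of each gene. Their signs could not change, and they are counted among the 146. Abcg1 turned to 0.0961 with array weights and to 0.185 without both replicate 1 arrays. With 1 array left out, Abcg1 ran from -0.168 to 0.0905, Abca1 from -0.358 to 0.0201 and Apoe from -0.26 to 0.0238, and the median of the 8 from -0.269 to -0.0115; the cause was not tested. Over all probe sets 0 passed without pairing (smallest adjusted p 0.235, 1419 at an unadjusted p of 0.05), 44 with the replicate block, 1 with ordinary linear models, 0 with ordinary linear models and the replicate block (smallest adjusted p 0.0509) and 0 to 8 with 1 array left out. The pairing by replicate number changed no call among the 8 genes. Each gene had 1 probe set, so no second probe set could be compared, and leaving out 1 array breaks a pair.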
